A study of Rattus rattus with 23 samples.

Results

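The genes described here encode the proteasome, together with its activators and assembly chaperones, measured in nasal respiratory epithelium of rats that breathed hydrogen sulfide (H2S). They were taken by gene symbol: every gene with a probe set carrying a single platform symbol that starts with Psma, Psmb, Psmc, Psmd, Psme or Psmg. The rule found 45 of the 14217 genes with such a probe set, and each was represented by its probe set with the highest mean signal. Of these, 43 are subunits, activators or chaperones of the proteasome. The other 2 are Psmc3ip (a partner of the recombinases of meiosis) and Psme3ip1 (which binds the activator Psme3). They were taken in by the first letters of the symbol and are given apart. Psmb6 and Psme3 are not among the 45, since their probe sets (1 and 4) carry several symbols.

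The proteasome is the protease that degrades proteins tagged with ubiquitin in the cytosol and nucleus. Its barrel, the 20S core, is built of outer rings of alpha subunits, which gate the entry, and inner rings of beta subunits, some of which cut the substrate. The 19S cap sits on the barrel and consists of a base, whose ATPases unfold the substrate, and a lid, which removes the ubiquitin chain. Under interferon, Psmb8, Psmb9 and Psmb10 replace the catalytic beta subunits and form the immunoproteasome, which makes peptides for antigen presentation. After oxidant or proteotoxic stress, cells are known to raise the subunit genes together through Nfe2l1, and heat shock and oxidant-defence genes by other factors.

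Expression was measured on 23 Affymetrix Rat230_2 arrays, 1 for each animal, from cells cut by laser out of the injured and regrowing part of the epithelium. All animals were male Sprague-Dawley rats exposed in a nose-only system, with an age of 10 weeks in the design text and 60 days in the sample labels. The exposed animals breathed 200 ppm H2S, a toxic gas that blocks mitochondrial respiration, for 3 h. Tissue was taken from 4 animals at 3 h, from 3 at 6 h and from 4 at 24 h, and another 4 breathed the gas daily for 5 days and gave tissue at 144 h. The controls breathed air for 3 h in the same system, 4 of them once with tissue taken at 24 h and 4 on 5 days with tissue taken at 144 h. Exposed animals of 3 h and 6 h therefore have no control of their own time: the air animals of 24 h stand in, and exposure and time cannot be told apart there. Those same air animals serve all the single-exposure comparisons. The organism field reads Rattus rattus, whereas the strain is of Rattus norvegicus. The design text names 24 rats, and 1 of them is not analysed here. For animals 6 (3 h), 14 (24 h) and 18 (air, 24 h), 1 label gives 5 days of exposure, against their titles, which were followed.

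Arrays of 2 air animals stood apart. Animal 18 (air, 24 h) correlated with the remaining arrays at a median of 0.427 and animal 22 (air, 144 h) at 0.741, where the other 21 reached 0.857 to 0.917. Their added spike-in transcripts gave 125 and 28.3 times the signal of the median array, where the other 21 gave 0.533 to 1.94 times. The leading results are therefore given with and without these 2 animals. Epcam, Krt8 and Krt18, which mark epithelium, and Foxj1, which marks ciliated cells, lay above the array median on 23 of 23 arrays, and so did Col1a1 of the stroma and Bglap and Ibsp of bone. Among the other genes of these lists, Col3a1 and Lum of the stroma did so on 23 arrays, and Dcn of the stroma and Acan of cartilage on 22. Pecam1 of vessels did so on 7, Comp of cartilage on 5 and Col2a1 of cartilage on 4. Some genes of tissue beneath the epithelium were thus measured too. Of the secretory genes, Muc5b, Bpifa1 and Agr2 did so on 23 arrays, Spdef on 22, Muc5ac on 21 and Scgb1a1, a club cell gene, on 1. The leukocyte genes Lyz2 and Cd74 did so on 23, Ptprc, Cd14 and Csf1r on 22, and Itgb2 and Cd3g on 21. Lower were Cd3e, at 13 arrays, Cd79b at 4 and Itgam at 1. Fewer cells of a type and less RNA per cell cannot be told apart in such samples.

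All 45 genes passed the filter on low signals (a signal exceeding the array's median on 3 or more arrays), as did 19822 of 31099 probe sets. Of the 45, 31 lay above the median on 23 arrays and 12 on 22, whereas the lid genes Psmd3 and Psmd8 did so on 21 and 17. Values are log2 of the signal plus 16, which compresses changes where signals are low, and a change is a difference of group means on that scale with its standard error (SE). No gene of the 45 passed limma's test (adjusted p under 0.05 over all tested probe sets) in any of 8 comparisons, with or without animals 18 and 22. The account that follows therefore gives values, counts of direction beside the same over all probe sets, and counts of genes whose groups do not overlap; such counts are descriptions.

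Core, base and lid were each summarised by a level per animal, the mean log2 value of the class less the array's mean over all genes. The level of the 13 core genes was 2.58, 2.47, 2.40 and 0.97 in the air animals of 24 h, the last being animal 18. It was 2.63, 2.53, 2.54 and 2.85 at 3 h, 2.50, 2.30 and 2.57 at 6 h, and 2.41, 2.87, 2.40 and 3.27 at 24 h. Exposed animals of 3 h and 6 h thus lay close to the air animals other than 18, and at 24 h animals 12 and 14 were high while 11 and 13 were not. At 144 h the core level was 2.37, 2.54, 2.53 and 3.11 in exposed and 2.02, 2.36, 2.09 and 2.17 in air animals; the groups did not overlap, though the lowest exposed and the highest air animal nearly met, and animal 26 stood above the rest.

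**Figure D1:**
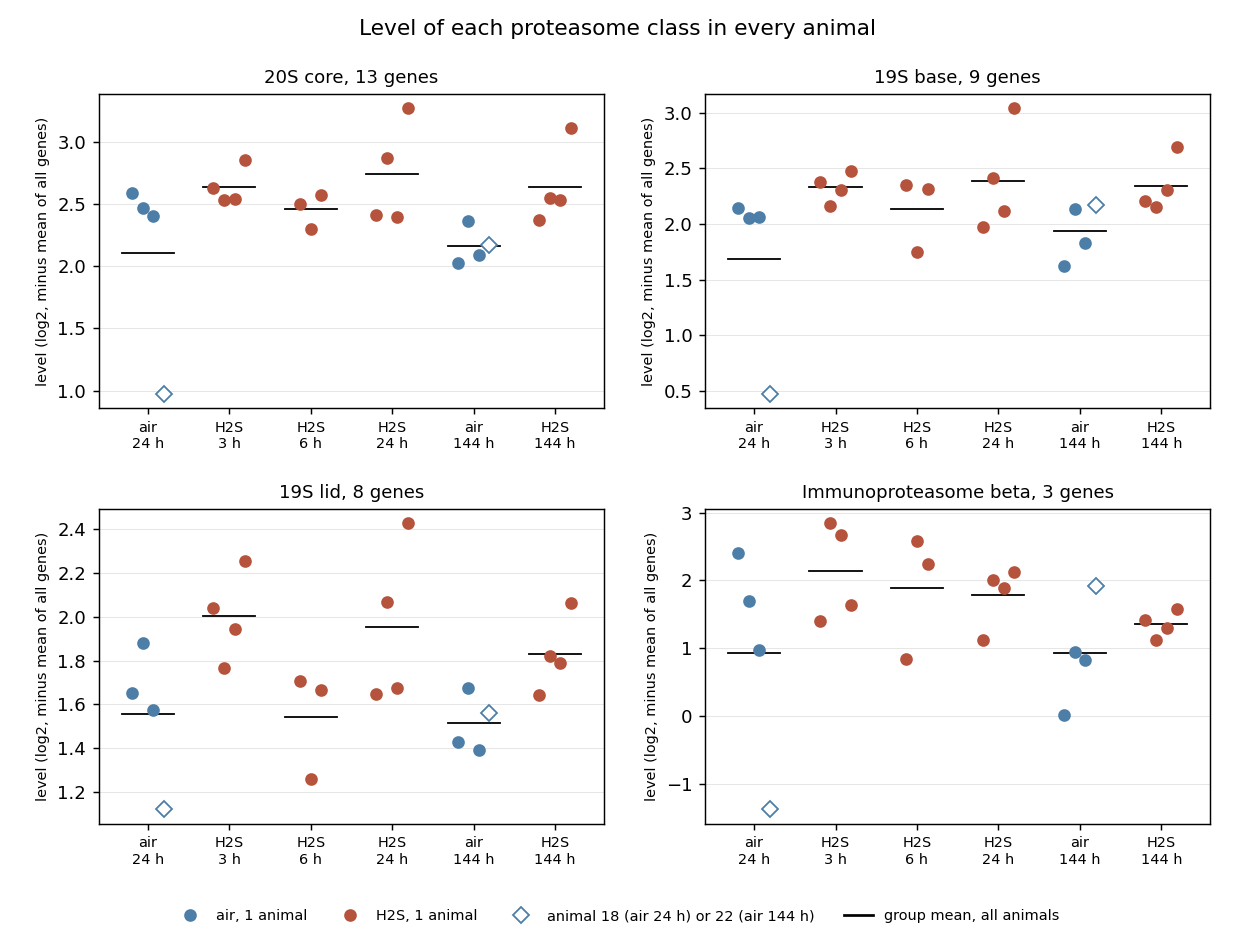
Level of the 20S core, 19S base, 19S lid and immunoproteasome genes in each animal (vertical axis, mean log2 value minus the mean of all genes on the array) by group (horizontal axis); bars are group means and open diamonds are animals 18 and 22. Animal 18 is the lowest air animal in all 4 panels (core level 0.97), and animal 14 (24 h) is the highest in core, base and lid (core level 3.27).

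The 9 base genes gave a similar picture. Their level was 2.33 ± 0.13 (SD, n = 4) at 3 h, 2.14 ± 0.34 (n = 3) at 6 h, 2.38 ± 0.48 (n = 4) at 24 h and 2.34 ± 0.24 (n = 4) at 144 h in exposed animals. In air animals it was 1.68 ± 0.81 (n = 4) at 24 h, or 2.09 ± 0.05 (n = 3) without animal 18, and 1.94 ± 0.26 (n = 4) at 144 h. The 8 lid genes were at 2.00 ± 0.20 at 3 h, 1.55 ± 0.25 at 6 h, 1.95 ± 0.37 at 24 h and 1.83 ± 0.17 at 144 h, against 1.56 ± 0.32 and 1.51 ± 0.13 in air animals of 24 h and 144 h. The lid level ran from 1.26 to 1.71 at 6 h and from 1.77 to 2.25 at 3 h, with no overlap, whereas core and base levels overlapped between these times. The gap in the lid rested on Psmd8, described below, which had the lowest change of the 8 genes between these times, at -1.74. With Psmd8 left out, the lid levels of 3 h and 6 h overlapped as well.

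At 3 h, 42 of 43 proteasome genes were higher than in air animals of 24 h, with a median change of 0.52, whereas 55.4% of all probe sets were higher and their median change was 0.087. None of the 45 passed the test, where 0.0807% of all probe sets did. An unadjusted p under 0.05 was found for 7 of the 43 beside 1942 of 19822 probe sets, and for 1 of the 43 beside 1862 of 19036 without animals 18 and 22. The smallest adjusted p in limma was 0.487. The shift was smaller without animals 18 and 22: 35 of 43 were higher, with a median change of 0.27 against -0.0047 over all probe sets. In 5 of 43 genes the groups did not overlap (Psmb3, Psmc1, Psmc4, Psmc5 and Psmd3), against 3.02% of all probe sets, and in 5 of 43 without animals 18 and 22, against 5.3%; there Psmg4 was lower in all exposed animals, as were 4.72% of all probe sets. The median change was 0.62 in the core, 0.61 in the base and 0.51 in the lid. Without animals 18 and 22 it was 0.14, 0.32 and 0.38, so the order of the classes turned; differences between classes were not tested.

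Among the genes of that comparison, Psmb3, a beta subunit of the barrel, stood at 10.24, 10.00, 9.75 and 10.51 at 3 h and at 9.70, 9.03, 9.61 and 9.28 in air animals of 24 h. Every exposed animal lay above every air animal, by a change of 0.72 (SE 0.336, limma adjusted p = 0.499) that was 0.68 without animals 18 and 22. Psmd3, a scaffold subunit of the lid, was at 9.10, 8.93, 8.92 and 8.95 against 8.84, 8.56, 8.31 and 7.03, a change of 0.79 (SE 0.353, limma adjusted p = 0.487) that was 0.41 without animal 18. Psmc4, an ATPase of the base, shows how far a single array can carry a mean: it was at 11.11, 10.59, 10.60 and 11.23 against 10.58, 10.51, 10.52 and 5.83. Its change of 1.52 (SE 0.682, limma adjusted p = 0.490) became 0.35 without animals 18 and 22. Psmd1, a large scaffold subunit of the base, was at 5.98 in animal 18 and had a change of 1.32 (SE 0.599, limma adjusted p = 0.491), or 0.35 without those animals. Psmd9, a chaperone of base assembly, was the single gene that was lower at 3 h, at -0.30 (SE 0.486, limma adjusted p = 0.842), and was at 0.21 without those animals.

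**Figure D2:**
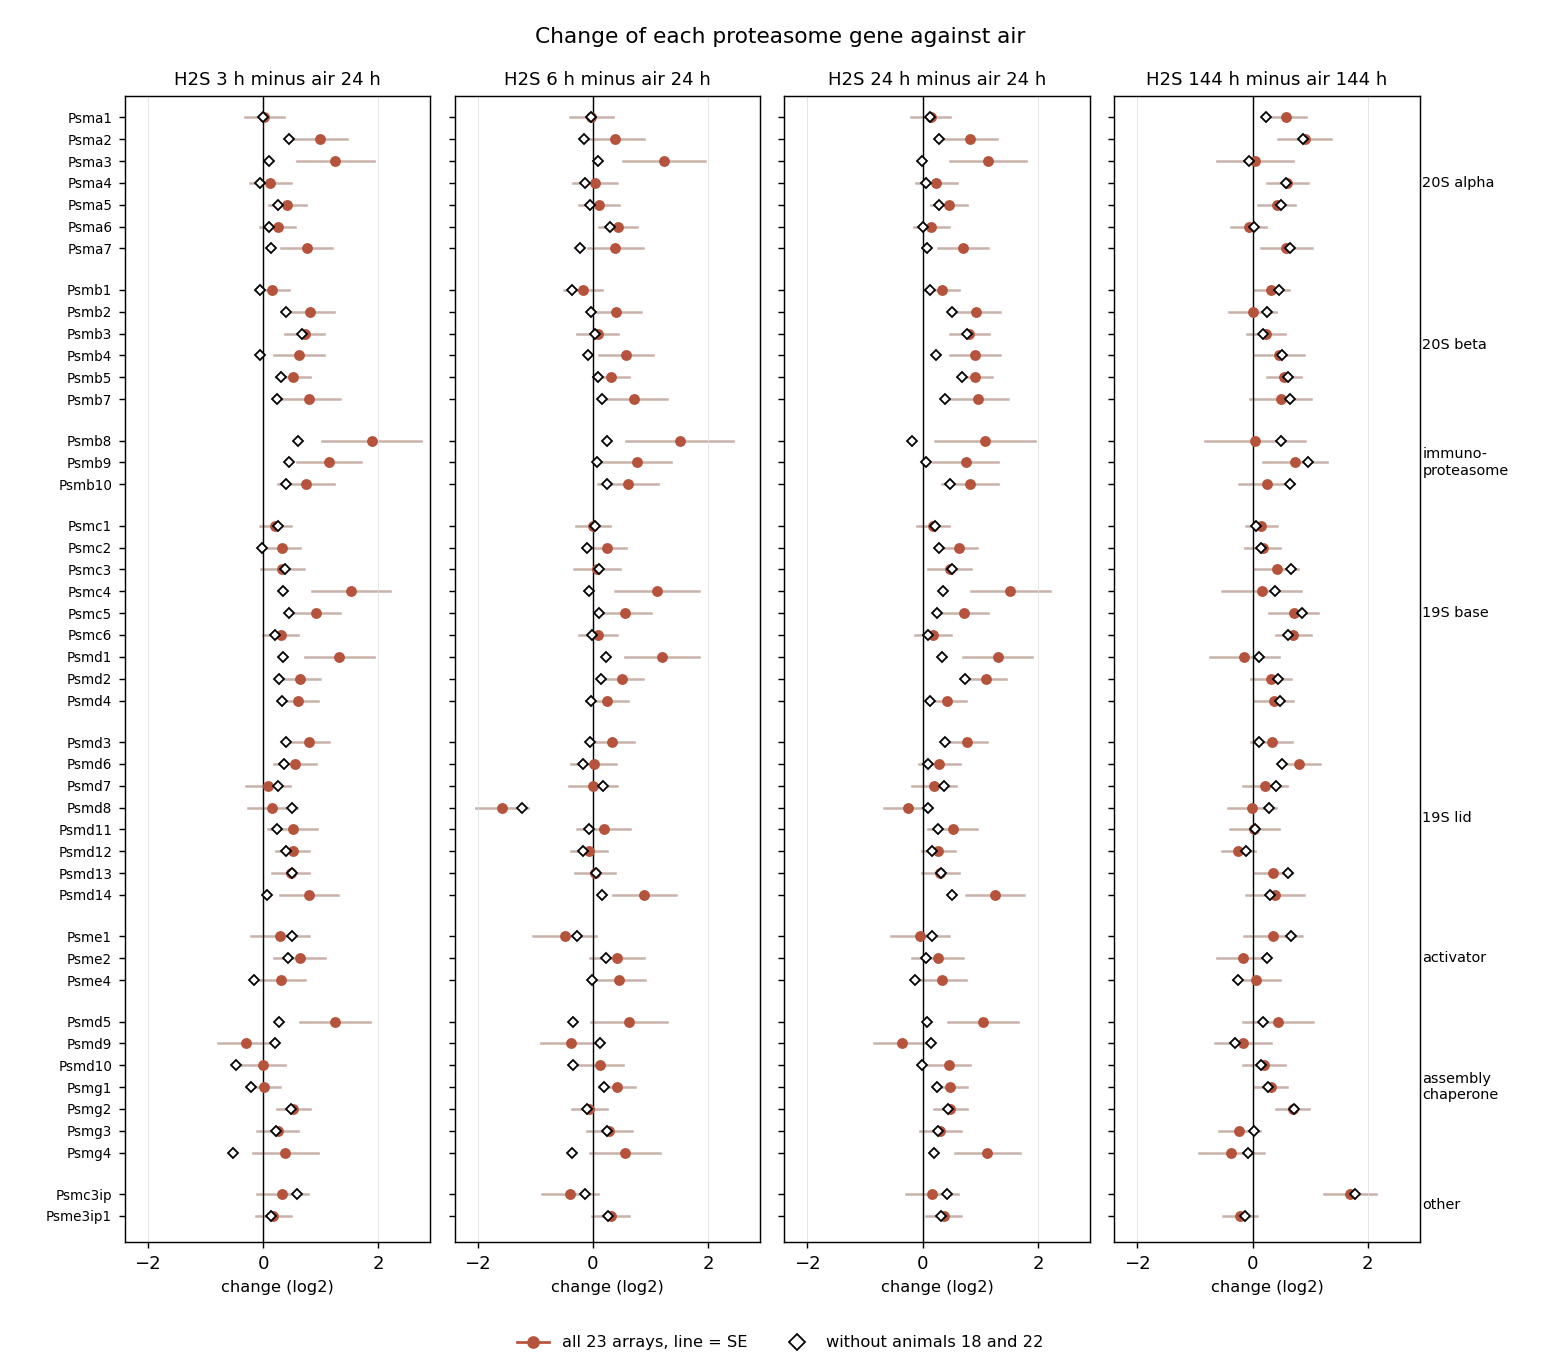
Change of each of the 45 genes against air (horizontal axis, log2) in 4 comparisons, with genes ordered by class; filled circles with SE lines use all 23 arrays and open diamonds leave out animals 18 and 22. At 3 h 42 of 43 proteasome genes lie above 0 and 35 of 43 do so without those animals; at 6 h the counts are 36 and 20, and at 144 h they are 35 and 38.

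At 6 h, 36 of 43 genes were higher than in air animals of 24 h, with a median change of 0.31 against 0.079 over all probe sets. Leaving out animals 18 and 22 gave 20 of 43 and -0.011, against -0.012 over all probe sets. No member passed the test, beside 0.00504% of all probe sets. An unadjusted p under 0.05 was found for 1 of the 43 beside 1151 of 19822 probe sets, and the smallest adjusted p was 0.781. No gene of the 43 had all exposed animals above all air animals, with 2.49% of all probe sets in that state, nor did any without animals 18 and 22 (4.51%). In the other direction, 2 of 43 (Psmb1 and Psmd10) were lower in all exposed animals once animals 18 and 22 were left out, against 5.31% of all probe sets. The medians of core, base and lid were 0.39, 0.25 and 0.031, and -0.037, 0.041 and -0.061 without those animals.

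Psmd8 departed from the other genes at 6 h. It encodes a lid subunit that joins last during lid assembly. Its values were 7.36, 5.83 and 6.41 at 6 h, 8.78, 8.18, 7.64 and 8.48 at 3 h, and 7.87, 7.49, 7.86 and 8.22 at 24 h. The 3 animals of 6 h lay below all 8 exposed animals of 3 h and 24 h. In air animals it was at 7.17, 8.28, 7.85 and 9.14 at 24 h and 7.06, 7.93, 7.46 and 8.69 at 144 h, so air values reached down to those of animal 8. The change from 3 h to 6 h was -1.74 (SE 0.452, unadjusted p = 0.000885, limma adjusted p = 0.523), and -1.38 to -2.15 when each animal of these groups was left out in turn. Against air at 24 h it was -1.57 (SE 0.452, limma adjusted p = 0.781), and -1.23 without animals 18 and 22. From 6 h to 24 h it was 1.32 (SE 0.452, unadjusted p = 0.0077, limma adjusted p = 1.00). Animals 18 and 22 are in neither the 3 h nor the 6 h group. Without them the spread was smaller, and the limma adjusted p of the change from 3 h to 6 h was 0.119. Over the other settings that adjusted p ran from 0.112 to 0.766. The low signals of this gene at 6 h, 41 to 148 on the linear scale, make the size of the change depend on the pseudocount: it was -1.95 with a pseudocount of 1 and -1.32 with 64.

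**Figure D3:**
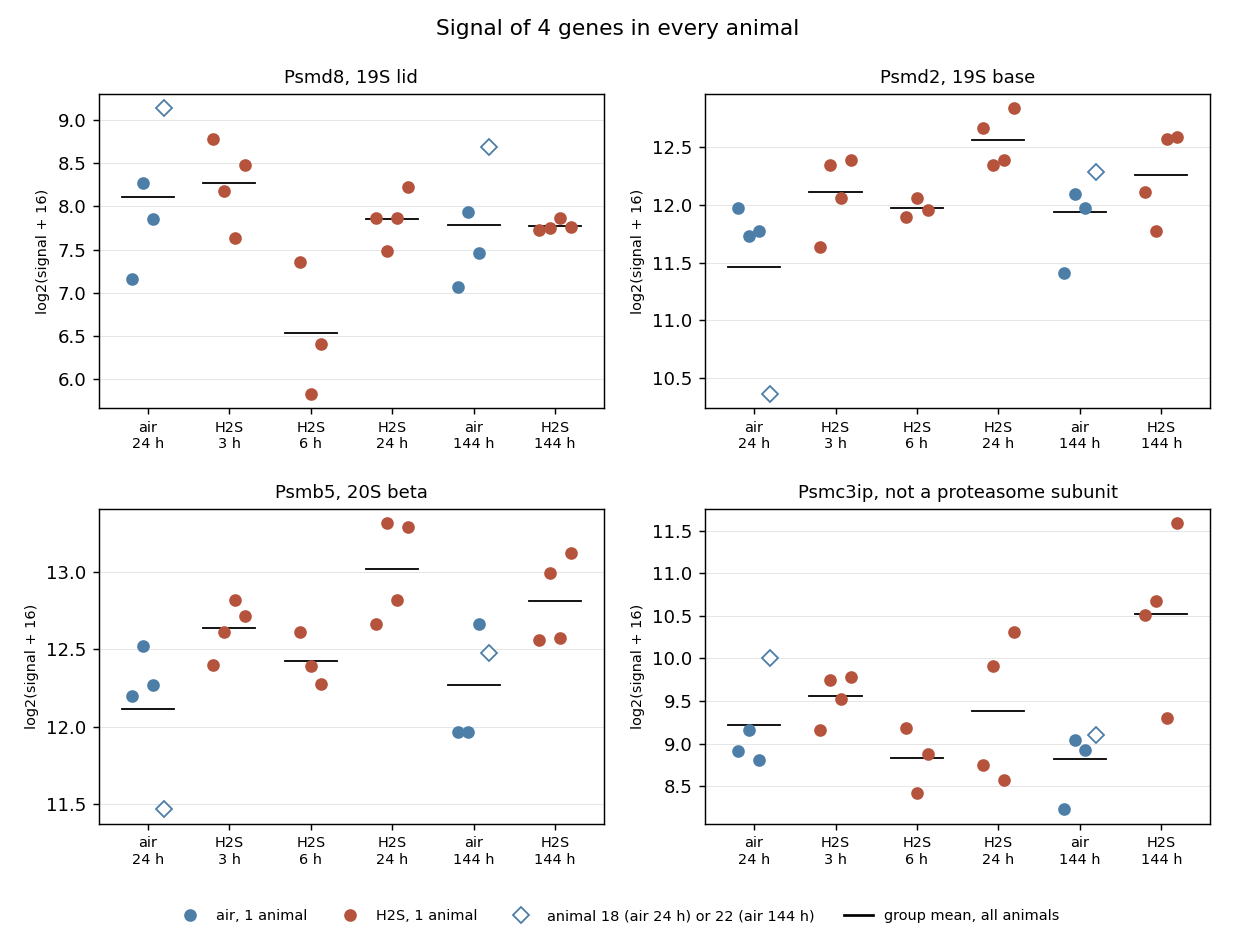
Signal of Psmd8, Psmd2, Psmb5 and Psmc3ip in each animal (vertical axis, log2 of the signal plus 16) by group; bars are group means and open diamonds are animals 18 and 22. The 3 animals of 6 h have the lowest exposed values of Psmd8 (5.83 to 7.36), and the 4 animals of 24 h lie above all air animals of 24 h in Psmd2 and Psmb5.

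Between 3 h and 6 h as a whole, 36 of 43 genes were lower, with a median change of -0.22 against -0.014 over all probe sets. No member passed the test (0.00504% of all probe sets). In 5 of 43 (Psmd12, Psmd3, Psmd5, Psmd8 and Psmg2) all animals of 6 h lay below all of 3 h, as in 3.78% of all probe sets. The median change was -0.21 in the core, -0.22 in the base and -0.44 in the lid, and 3 of the 5 belong to the lid. Psmd12, another lid subunit, was at 11.06, 11.07 and 11.01 at 6 h and at 12.29, 11.09, 11.52 and 11.60 at 3 h, a change of -0.58 (SE 0.311, limma adjusted p = 1.00). Psmg2, a chaperone that pairs with Psmg1 to assemble the alpha ring, was at 9.68, 9.74 and 9.76 against 10.02, 10.27, 10.55 and 10.41, a change of -0.59 (SE 0.307, limma adjusted p = 1.00). Its partner Psmg1 was higher at 6 h by 0.40 (SE 0.311, limma adjusted p = 1.00).

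At 24 h after a single exposure, the air group of the same time allowed a matched comparison. Here 40 of 43 genes were higher in exposed animals, with a median change of 0.48 against 0.073 over all probe sets, of which 54.9% were higher. Without animals 18 and 22 the count was 39 and the median 0.23 against -0.018. Without animals 6, 14 and 18, whose labels disagree, it was 28 of 43 and 0.034; animal 14 had the highest core, base and lid level of all 23. No member passed the test, beside 0.0101% of all probe sets. An unadjusted p under 0.05 was found for 9 of the 43 beside 1603 of 19822 probe sets, and for 3 of the 43 beside 1257 of 19036 without animals 18 and 22. The smallest adjusted p was 0.530. In 5 of 43 genes (Psmb3, Psmb5, Psmc2, Psmc4 and Psmd2) the groups did not overlap, against 2.22% of all probe sets; without animals 18 and 22 it was 5 of 43 against 4.1%.

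Psmd2, which binds ubiquitin-like domains on the base, gave the smallest p of the matched comparison. It was at 12.66, 12.35, 12.39 and 12.84 in exposed and 11.98, 11.73, 11.78 and 10.36 in air animals, a change of 1.10 (SE 0.341, unadjusted p = 0.0039, limma adjusted p = 0.530). Every exposed animal exceeded every air animal, and the change was 0.73 without animals 18 and 22 (limma adjusted p = 0.609). Psmb5, the beta subunit with the chymotrypsin-like site, was at 12.66, 13.31, 12.81 and 13.28 against 12.20, 12.52, 12.27 and 11.47, a change of 0.90 (SE 0.292, limma adjusted p = 0.562) and 0.69 without those animals. This rests on 1 of 3 probe sets of Psmb5: the other 2 had mean values of 5.90 and 6.59 and changes of -1.25 (SE 0.649) and -0.83 (SE 0.878), and 1 of them failed the filter. Psmd14, the lid protease that cuts off the ubiquitin chain, was at 11.57, 12.34, 11.76 and 12.28 against 11.76, 11.37, 11.29 and 8.54, so the groups overlapped at a change of 1.25 (SE 0.506, limma adjusted p = 0.612). Its change was 0.52 without animals 18 and 22.

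By class, the median change at 24 h was 0.81 in the core, 0.63 in the base and 0.30 in the lid, and 0.23, 0.28 and 0.29 without animals 18 and 22. The beta ring led the core: the 6 constitutive beta genes had a median of 0.90 (0.45 without those animals) and the 7 alpha genes 0.45 (0.081). Psmb7, the subunit with the trypsin-like site, was at 8.17, 9.44, 9.27 and 10.64 against 8.64, 9.17, 9.15 and 6.75, a change of 0.95 (SE 0.529, limma adjusted p = 0.617). Its exposed animals spanned the air animals other than 18, and the change was 0.39 without animal 18. The level of the 5 airway epithelial markers was 3.92 to 5.11 in exposed and 2.65 to 3.98 in air animals of 24 h, and 4.02 to 5.66 at 3 h. Its mean was 4.44 in exposed and 3.52 in air animals of 24 h; its part in the proteasome values was not tested.

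From 6 h to 24 h among exposed animals, 37 of 43 genes were higher, with a median change of 0.31 against -0.014 over all probe sets. Again no member passed (0.0101% of all probe sets). In 10 of 43 (Psmb1, Psmb5, Psmc2, Psmc4, Psmd10, Psmd12, Psmd2, Psmd8, Psmg2 and Psmg4) all animals of 24 h lay above all of 6 h, against 3.4% of all probe sets. Neither group holds animal 18 or 22. Animal 14 weighed here instead: without it, 28 of 43 were higher and the median was 0.14. The medians of core, base and lid were 0.32, 0.18 and 0.34. Psmd10, a chaperone of the base also known as gankyrin, was at 11.14, 10.73, 10.79 and 10.75 at 24 h and 10.48, 10.61 and 10.45 at 6 h, a change of 0.34 (SE 0.399, limma adjusted p = 1.00).

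At 144 h, after 5 daily exposures, 35 of 43 genes were higher in exposed than in air animals, with a median change of 0.32, whereas the median over all probe sets was -0.022 and 48.4% were higher. Leaving out animals 18 and 22 gave as large a shift, 38 of 43 and 0.40 against -0.023. Without air animal 19 the median was 0.21 and 30 of 43 were higher. None of the 45 passed the test in limma, nor did any probe set (0%), though 1546 of 19822 had an unadjusted p under 0.05, 3 of the 43 among them (8 of the 43 and 2404 of 19036 without animals 18 and 22). The smallest adjusted p among the 43 was 0.603 (0.307 without animals 18 and 22). In 3 of 43 the groups did not overlap, against 2.5% of all probe sets; without animals 18 and 22 it was 7 of 43 (with Psmb4, Psmb7, Psmb9 and Psmd13 added), against 5.27%. The levels of cell type markers also differed between these groups, without a test. The airway epithelial level was 3.80 to 4.29 in exposed and 2.85 to 3.82 in air animals, and the mean basal level was 3.10 against 1.71. The mean level of cartilage and bone markers was 1.19 in exposed and 2.56 in air animals. Their part in the proteasome values was not tested.

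The 3 genes were alpha subunits of the gate rings. Psma2 was at 9.71, 9.80, 9.49 and 10.00 in exposed and 8.30, 8.96, 9.36 and 8.74 in air animals, a change of 0.91 (SE 0.458, limma adjusted p = 0.659). Psma4 was at 12.10, 11.76, 11.99 and 12.20 against 11.14, 11.68, 11.47 and 11.34, a change of 0.61 (SE 0.355, limma adjusted p = 0.693). Psma7 was at 11.34, 11.40, 11.37 and 11.58 against 10.97, 11.05, 10.31 and 11.01, a change of 0.58 (SE 0.440, limma adjusted p = 0.763). All 3 kept a similar size without animals 18 and 22, at 0.88, 0.58 and 0.64. Psmg2 was at 10.27, 10.72, 10.13 and 11.06 against 9.31, 10.14, 10.04 and 9.90, with a change of 0.70 (SE 0.284, limma adjusted p = 0.603) and groups that met at the edge. Psmc6, an ATPase of the base, was higher by 0.71 (SE 0.309, limma adjusted p = 0.624). On the other side, Psmd12 was at -0.25 (SE 0.288, limma adjusted p = 0.864) and the chaperone Psmg3 at -0.23 (SE 0.356, limma adjusted p = 0.909). The medians of core, base and lid were 0.46, 0.32 and 0.28, and 0.50, 0.44 and 0.30 without those animals.

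The air groups of both times were compared as well, since each is the reference of an exposure comparison. Over all animals, 29 of 43 genes were higher in air animals of 144 h than of 24 h, with a median change of 0.14 against 0.077 over all probe sets. The direction turned when animals 18 and 22 were left out: 6 of 43 were higher and the median was -0.20, against -0.010. None of the 45 passed the test in limma, nor did any probe set (0%); an unadjusted p under 0.05 was found for 0 of the 43 and 1660 of 19822 probe sets. Without those animals 6 of 43 (Psma4, Psma7, Psmb1, Psmb4, Psmb9 and Psmc2) were lower in all air animals of 144 h than in all of 24 h, against 4.43% of all probe sets. The core level without them was 2.16 ± 0.18 (SD, n = 3) in air animals of 144 h and 2.49 ± 0.09 (n = 3) in those of 24 h, and it was 2.64 ± 0.32 (n = 4) in exposed animals of 144 h. Without animals 18 and 22 the air reference of 144 h thus lay below that of 24 h. The exposed animals of 144 h then lay nearer to the air animals of 24 h than to their own. Over all animals neither held: the core level was 2.16 in air animals of 144 h and 2.11 in those of 24 h.

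A direct test of whether the exposure effect differed between 144 h and 24 h passed in limma for none of the 45 genes, nor for any probe set (0%); an unadjusted p under 0.05 was found for 0 of the 43 and 929 of 19822 probe sets. The median difference of effects was -0.26 over the 43 genes, against -0.093 over all probe sets, with 12 of 43 above 0. It was 0.11 and 27 of 43 without animals 18 and 22, against 0.0034 over all probe sets. Without animal 18 alone it was 0.037, without animal 14 it was -0.14, and without air animals 15 or 16 it was -0.44 or -0.43. At 144 h the exposed animals had RNA integrity numbers of 4.8, 5.1, 4.5 and 1.7 and the air animals 5.6, 6.4, 5.1 and 6.9. The animal with 1.7, number 26, had the highest core level of 144 h. At 24 h animal 14, with a number of 10, had the highest core level (3.27), and animals 13 and 18, with 2.6 each, were at 2.40 and 0.97. With the number as a covariate over the 19 arrays that have one, the median change of the 43 genes at 144 h was 0.48. Without the arrays of a number under 3, animal 26 among them, it was 0.22, with 31 of 43 higher.

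The immunoproteasome genes varied widely within groups, and Psmb8 had the largest SD over all arrays of the 45, at 1.35. Psmb8, which replaces Psmb5, was at 11.41, 11.09, 9.66 and 5.65 in air animals of 24 h and at 10.48, 12.22, 11.61 and 11.03 at 3 h. It was at 9.27, 12.22 and 11.38 at 6 h and at 10.01, 10.80, 10.53 and 10.80 at 24 h. At 144 h it was at 10.42, 9.90, 10.01 and 10.10 in exposed and 9.03, 9.51, 10.32 and 11.39 in air animals. The groups overlapped in all 4 comparisons against air, and the 3 animals of 6 h alone spanned most of the range of the exposed animals. Animals 4, 5 and 9 held the highest values, and animal 18 the lowest.

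Its change at 3 h was 1.88 (SE 0.866, limma adjusted p = 0.495), and 0.61 without animals 18 and 22. At 24 h it was 1.08 (SE 0.866, limma adjusted p = 0.686), and -0.19 without them, and at 144 h it was 0.046 (SE 0.866, limma adjusted p = 0.992), and 0.49 without them. Psmb9, which replaces Psmb6, was at 10.10, 11.30, 11.37 and 9.80 at 3 h against 11.05, 9.79, 9.73 and 7.44 in air animals of 24 h, a change of 1.14 (SE 0.556, limma adjusted p = 0.513) and 0.45 without them. At 144 h Psmb9 was at 9.87, 9.62, 9.84 and 10.47 in exposed and 8.59, 9.54, 8.85 and 9.86 in air animals, a change of 0.74 (SE 0.556, limma adjusted p = 0.763). Animal 22 gave the overlap here, and without it and animal 18 the change was 0.96 (limma adjusted p = 0.377). Psmb10, which replaces Psmb7, was at 0.75, 0.60, 0.82 and 0.24 against air at 3 h, 6 h, 24 h and 144 h, and at 0.40, 0.25, 0.47 and 0.64 without them. At 6 h Psmb8 had a change of 1.50 (SE 0.936, limma adjusted p = 0.781) and Psmb9 of 0.76, and 0.24 and 0.071 without them.

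The constitutive partners Psmb5 and Psmb7 form the standard catalytic sites. Psmb5 had changes of 0.52, 0.31, 0.90 and 0.54 against air at 3 h, 6 h, 24 h and 144 h, and its exposed animals lay between 12.28 and 13.31 throughout. As the mean of its 3 probe sets it was at 0.067, -0.50, -0.39 and -0.43, so the direction turned at 6 h, 24 h and 144 h. Psmb7 had changes of 0.80, 0.71, 0.95 and 0.49, and of 0.24, 0.15, 0.39 and 0.65 without animals 18 and 22. At 144 h Psmb7 was at 8.81, 8.81, 9.21 and 10.46 in exposed and 8.57, 8.67, 8.77 and 9.31 in air animals, and animal 22 gave the overlap.

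**Figure D4:**
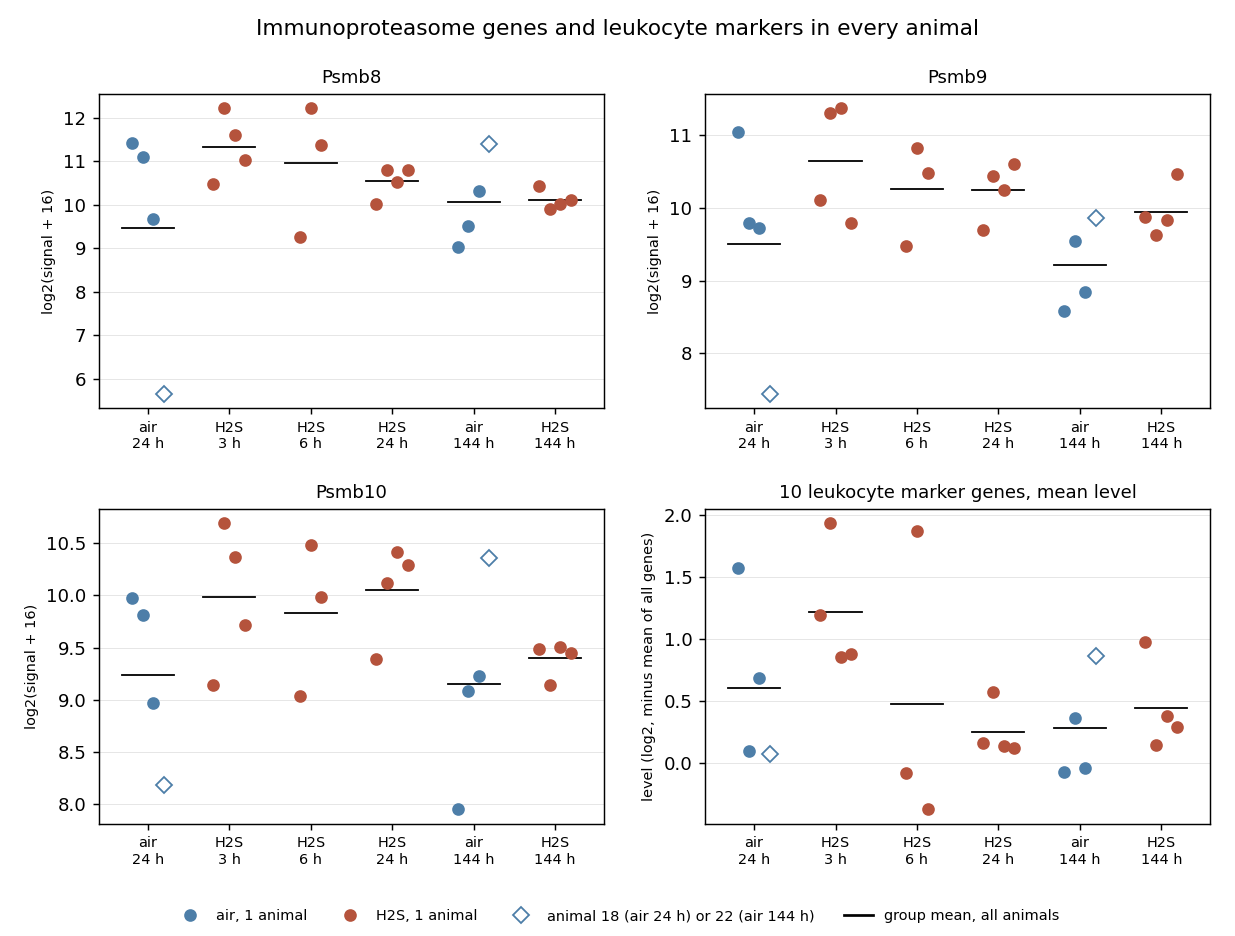
Signal of Psmb8, Psmb9 and Psmb10 (vertical axis, log2 of the signal plus 16) and the mean level of 10 leukocyte marker genes (log2, minus the mean of all genes on the array) in each animal by group; bars are group means and open diamonds are animals 18 and 22. Animals 4 (3 h) and 9 (6 h) are the highest in both Psmb8 (12.22 each) and the leukocyte level (1.93 and 1.87).

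Leukocyte marker levels varied in these same animals. The level of 10 leukocyte markers was 1.20, 1.93, 0.85 and 0.87 at 3 h, -0.08, 1.87 and -0.38 at 6 h, and 1.57, 0.09, 0.68 and 0.07 in air animals of 24 h. Animals 4 and 9, highest in Psmb8, were the highest in leukocyte level, and animal 15, the highest air animal in Psmb8, had the highest leukocyte level of the air animals. Animals 3 and 10 did not follow: animal 3 had 10.48 for Psmb8 at a leukocyte level of 1.20, and animal 10 had 11.38 at -0.38. The summed signal of these markers ran from 23580 to 60654 at 3 h, from 11650 to 69170 at 6 h and from 11453 to 39208 in air animals of 24 h. The part of leukocytes in the immunoproteasome values was not tested.

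The activators open the gate of the core without ubiquitin. Psme1 and Psme2 form the interferon-inducible ring known as PA28. Psme1 was at 10.60, 12.09, 9.61 and 11.49 at 3 h, at 9.88, 10.79 and 9.84 at 6 h, and at 10.60, 10.40, 10.34 and 11.29 in air animals of 24 h, a change of 0.29 at 3 h (SE 0.501, limma adjusted p = 0.854) and -0.49 at 6 h (SE 0.541, limma adjusted p = 0.812). At 3 h animals 4 and 6 lay above all air animals in Psme1 and animal 5 below them. At 24 h and 144 h the change of Psme1 was -0.044 (SE 0.501) and 0.36 (SE 0.501). Psme2 differed from air by 0.63 (SE 0.440), 0.42 (SE 0.476), 0.26 (SE 0.440) and -0.17 (SE 0.440) in the 4 comparisons against air, with adjusted p in limma from 0.623 to 0.950. Its highest values were 12.33 in animal 22 and 12.22 in animal 9. Psme4, the single-chain activator PA200, ran from 10.49 in animal 18 to 12.82, and from 11.73 to 12.82 over exposed animals.

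The 7 assembly chaperones had median changes of 0.26, 0.29, 0.47 and 0.20 against air at 3 h, 6 h, 24 h and 144 h, and of 0.21, -0.11, 0.20 and 0.15 without animals 18 and 22. Psmd5, a base chaperone, was higher by 1.24 at 3 h and by 0.27 without those animals; it was at 6.26 in animal 18 and between 8.89 and 10.75 elsewhere. Psmg4, another chaperone of the alpha ring, was at 9.29, 9.03, 9.14 and 5.49 in air animals of 24 h and at 8.22, 8.43, 8.98 and 8.88 at 3 h. Its change of 0.39 at 3 h turned to -0.53 without animals 18 and 22 (unadjusted p = 0.044, limma adjusted p = 0.500), where every exposed animal lay below the remaining air animals.

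Of the 2 genes outside the proteasome, Psmc3ip had the smallest p of all 45 in a comparison against air. At 144 h it was at 10.51, 10.67, 9.30 and 11.59 in exposed and 8.23, 9.04, 8.93 and 9.10 in air animals, a change of 1.69 (SE 0.446, unadjusted p = 0.000985, limma adjusted p = 0.580). All exposed animals exceeded all air animals, and without animals 18 and 22 the change was 1.78 (limma adjusted p = 0.241). The difference of its exposure effect between 144 h and 24 h was 1.53 (SE 0.630, limma adjusted p = 0.946). Psme3ip1 was at -0.22 at 144 h (SE 0.302, limma adjusted p = 0.898) and between 0.18 and 0.36 against air at the other times.

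Genes around the proteasome were set beside it as lists. Of 12 measured genes that supply or deliver ubiquitin, 10 were higher at 3 h (median 0.51) and 1 passed the test: Zfand2a, a stress-induced protein that associates with the proteasome. Zfand2a was at 10.65, 10.79, 11.15 and 13.09 at 3 h and 8.55, 8.77, 8.77 and 9.98 in air animals of 24 h, so it rose by 2.40 (SE 0.422, limma adjusted p = 0.0222; 0.00517 without animals 18 and 22). By 6 h it was at 9.16, 8.74 and 9.52. The oxidant and heat stress genes, taken as a reference for the exposure, were all higher at 3 h (10 of 10, median 1.97), and Hspa1a, the inducible Hsp70, rose by 2.88 (SE 0.562, limma adjusted p = 0.0472; 0.0459 without animals 18 and 22). Both calls rest on the fit: no probe set passed at 3 h when only the 2 groups compared were fitted, nor when only the 19 arrays with an RNA integrity number were, which leaves out animals 5 and 6 of that group. The proteasome median of 0.52 at 3 h thus stood beside 1.97 in the reference list, and 0.27 beside 1.56 without animals 18 and 22.

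In the remaining lists no gene passed the test in any of the 8 comparisons. Of 9 tested proteasome partners outside the symbol rule, 6 were higher at 3 h (median 0.18), 5 at 24 h (0.072) and 5 at 144 h (0.11). Pomp, which matures the core, had a change of 0.86 at 3 h (SE 0.456, limma adjusted p = 0.541) and 0.94 at 24 h (SE 0.456, limma adjusted p = 0.612), and 0.21 and 0.29 without animals 18 and 22; it was at 9.17 in animal 18. Among 8 genes of proteasome transcription control, of which 5, 5, 5 and 4 were higher at 3 h, 6 h, 24 h and 144 h, 2 are named for their role. Nfe2l1 was at -0.12 at 3 h (SE 0.406) and -0.42 at 24 h (SE 0.406), and at 0.39 and 0.095 without animals 18 and 22. Nfe2l2, the factor of oxidant defence, was at 0.44 (SE 0.412) and 0.73 (SE 0.412), and at -0.0010 and 0.30 without them, and at 0.95 at 144 h (SE 0.412, limma adjusted p = 0.624). The 7 genes of antigen processing had medians of -0.065, 0.14, -0.098 and -0.068 against air at 3 h, 6 h, 24 h and 144 h, beside immunoproteasome medians of 1.14, 0.76, 0.82 and 0.24. Without animals 18 and 22 the antigen processing medians were 0.39, 0.025, -0.14 and 0.19, beside 0.45, 0.24, 0.057 and 0.64 for the immunoproteasome.

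Other probe sets of the same genes bear on how far a single one can be read. Of the 45 genes, 9 had more than 1 probe set, 14 further ones in all, of which 9 passed the filter. The direction matched that of the chosen probe set in 7 of 14 at 3 h, 8 at 6 h, 7 at 24 h and 6 at 144 h; among the 9 that passed the filter it matched in 6, 7, 6 and 3. The second kept probe set of Psmd14 followed the first, at 1.52 (SE 0.636) beside 1.25 at 24 h and 0.86 (SE 0.636) beside 0.39 at 144 h. Other kept ones did not: at 144 h that of Psme1 was at -1.19 (SE 0.761) beside 0.36, and that of Psmd7, a lid subunit, at -0.42 (SE 0.477) beside 0.21. The second of Psmd11, a lid subunit, was at 1.18 (SE 0.476) beside 0.53 at 24 h, while another with a mean of 5.84 was at -1.67 (SE 0.866) and failed the filter. That of Psmc4 with a mean of 5.42, which also failed it, was at -0.72 (SE 0.780) beside 1.52.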

How the data were processed

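RNA of laser-captured epithelium was amplified in 2 rounds before hybridization, per the labels' protocols, so levels are those of amplified RNA. The deposited values are linear signal intensities, 1 per probe set, made by the authors with GCOS 1.0 per the submitters' processing notes; all 23 arrays had a trimmed mean between 500.1 and 500.2, so they were scaled to a common level. From these, log2 of the signal plus 16 was computed and fitted with limma 3.58.1 (R 4.3.3), with 1 mean per group over all 23 arrays. A probe set was kept if its signal exceeded the array's median on 3 or more arrays (19822), and p-values were two-sided and adjusted over all of them by Benjamini-Hochberg with a threshold of 0.05. Each p-value sets a difference of group means against the spread between animals within groups, pooled over all groups of the fit. The fit was tested on simulated data.

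The members, the gene lists and the alternatives were chosen with earlier results of these data known, and the counts of groups that do not overlap were added after values were seen. Named genes were drawn, per comparison, from up to 3 with the smallest p in each direction, the catalytic and PA28 pairs, and genes whose groups did not overlap. Not every gene of this kind was described in every comparison, and Psma1, Psma3, Psma6 and Psmd6 were not described at all. Psmd5, Psmg4, Psme4, Psmd7, Psmd11, Psmg1 and Nfe2l1 were named after their values were seen. Symbols are those of the platform annotation, which gives 20832 probe sets 1 symbol, 436 several and 9831 none. Sequences were not used here. The settings varied were the pseudocount (1, 64), the scaling (quantile or median), the filter, a trended and robust variance, array weights, RNA integrity, fits on only the groups compared, averaging a gene's probe sets, and leaving out animals.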

Additional observations from a re-analysis of the deposited data

Results flagged for a closer look

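In groups of 4 animals, 120 values were checked (8 class levels and 16 genes in 5 groups), and 13 stood out. The check looked for a single animal whose gap to the nearest of the others took most of the group's range. Chance alone gives about 1 in 20 for independent values. These were not independent, since the core level pools the alpha and beta levels and each animal enters many values. The count of 13 can therefore not be read against that rate. Of the 13, 8 were the air animal 18 at 24 h: the core level (0.974), the 20S alpha level (0.950), the 20S beta level (1.00), the 19S base level (0.472), Psmc4 (5.83), Psmd1 (5.98), Psmd2 (10.4) and Psmd14 (8.54) were all far below the other air animals. The array of this animal also stood apart by its spike-in signal. Psmg2 was high in air animal 15 at 24 h (10.1), and the assembly chaperone level was high in air animal 20 at 144 h (1.20). At 3 h animal 3 was high in Psmd3 (9.10) and Psmc6 (11.6), and at 24 h animal 14 was high in Psmc4 (11.4). No value of animal 22 stood out by this measure.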

How the results depend on the processing

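No paired analysis was possible because the animal numbers in the titles are unique and pair no animals across groups. No member passed the test in any of the settings tried, 189 settings and comparisons in all. Of the medians of core, base and lid, the core moved most. Its median at 3 h was 0.14 without arrays of an RNA integrity number under 3, 0.066 without animals 6, 14 and 18, and 0.14 without animals 18 and 22; leaving out 1 animal at a time gave 0.14 to 0.82. At 6 h it was -0.037 in each of these 3 settings, and -0.037 to 0.45 with 1 animal left out. At 24 h it was 0.31 without the low RNA integrity numbers, 0.032 without animals 6, 14 and 18, 0.23 without animals 18 and 22 and 0.32 with array weights, and 0.23 to 0.93 with 1 animal left out. The base at 24 h was 0.090 without animals 6, 14 and 18. Between the air groups the core was -0.25, -0.25 and -0.32 in the same 3 settings, and -0.25 to 0.24 with 1 animal left out. The difference of exposure effects for the core was 0.37 without animals 6, 14 and 18 and 0.21 without animals 18 and 22. Fitting RNA integrity as a covariate gave the lid 0.20 at 3 h. Median centring gave the lid 0.29 at 6 h, 0.56 at 24 h and 0.62 at 144 h; it also shifted the median of all probe sets to 0.27, 0.34, 0.34 and 0.32 at 3 h, 6 h, 24 h and 144 h, against 43-gene medians of 0.70, 0.57, 0.75 and 0.66. Psmb5 at 24 h was -0.39 as the mean of all its probe sets. Apart from the removals of animals and arrays, whose effect lies in the animals left out, the cause was not tested. The number of arrays, 3 or 4 a group, limits the precision: the median standard error of a member's change was 0.385 against air at 3 h, 24 h and 144 h.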
